A study of Mus musculus with 12 samples.

Results

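The RNA of intestinal stem cells (ISCs) was compared between mice that received an injection of vehicle and mice that received no injection, the control groups that the study used for corticosterone (CORT) and for restraint. Members were the libraries named Vehicle 3, 5 and 6 and Ctrl 1, 2 and 3, 6 of the 12 RNA-seq libraries of the series. In them, 13642 of the 47729 genes in the count table passed a filter on low counts. All mice carried the Lgr5-EGFP-IRES-CreERT2 knock-in, in which 1 copy of the *Lgr5* locus drives EGFP and a tamoxifen-dependent Cre. Each library came from Lgr5-EGFPhi epithelial cells sorted from small intestinal crypts. Ctrl mice were untreated, and vehicle mice received a sulfobutylether-β-cyclodextrin solution intraperitoneally. The remaining groups were restrained once (Stress, whose libraries the labels call CRS, 2 of them with several numbers joined in 1 name) or injected with CORT dissolved in the same solution. The study's methods describe mice of both sexes and matched age, and deprivation of food and water for the control mice of chronic restraint while other mice were in the tubes. Neither the labels nor the methods give the sex, the feeding state, the hour of collection or a sequencing batch for a single library. The injection, the handling, the feeding state and the batch cannot be told apart in this comparison. Sex is partly tied to the group as well, by the sex-linked messages given below.

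ISCs at the crypt base renew the intestinal epithelium, and they burn fatty acids and make ketone bodies through a program under the fatty acid-sensing receptors of the PPAR family, which fasting is known to raise. Glucocorticoid hormones act on the same cells through the receptor NR3C1 and raise *Fkbp5*, *Tsc22d3*, *Per1* and *Sgk1*. Immediate early genes, such as *Fos* and *Egr1*, are switched on within minutes by growth factors, injury and tissue handling, and interferon-stimulated genes by viral or microbial signals.

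Total counts were 16152289 to 16943362 in Ctrl and 16465961 to 31280267 in vehicle, and Vehicle 6 was the deepest of the 6. Levels are given as CPM, the counts of a gene over the library total scaled by TMM, in the order of the libraries above. Log2 fold changes are vehicle over Ctrl and are given ± SE. A count of 0 in a library of Ctrl or vehicle allows up to 0.384 to 0.743 CPM, by counting error only. The sorted cells carried their label's markers at like levels in both groups. *Olfm4* was at 8473, 7507 and 8031 CPM in Ctrl 1, 2 and 3 and 7750.0, 6969 and 7678 CPM in Vehicle 3, 5 and 6. *Lgr5* was at 226, 208 and 247 in Ctrl and 214, 196 and 195 CPM in vehicle. None of 6 ISC markers passed the edgeR test, with 1 at an unadjusted p below 0.05 and 0 by DESeq2. *Ptprc* and *Csf1r* of blood cells and *Kdr*, *Col1a2*, *Col3a1* and *Dcn* of endothelium and stroma were at 0 in all 6 libraries. The blood cell markers *Cd3e*, *Cd79a* and *Alas2* and the others, *Pecam1* and *Col1a1*, were at or under 1.18 CPM. *Itgam*, also of blood cells, was at 6.67, 2.29 and 5.29 in Ctrl and 1.99, 2.24 and 2.05 CPM in vehicle. It lay lower in vehicle without overlap and did not pass (log2 fold change -1.18, edgeR adjusted p = 0.28).

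Vehicle 5 and Vehicle 6 stood apart from the other 4 libraries in sex-linked messages. *Xist*, the RNA that coats the inactive X chromosome, was at 2.01, 1.45 and 7.08 in Ctrl and 17.1, 811 and 708 CPM in vehicle. The Y-linked gene *Ddx3y* was at 38.2, 49.4 and 51.1 in Ctrl and 41.2, 0.707 and 0 CPM in vehicle. *Kdm5d*, *Eif2s3y* and *Uty* were likewise present in the 3 Ctrl libraries and Vehicle 3 and at or under 1.59 CPM in the other two. In these messages Vehicle 5 and Vehicle 6 thus had the pattern of female mice and the 3 Ctrl libraries that of male mice. The groups differed in sex-linked RNA. A second fit had a term for the libraries with *Xist* above 100 CPM, and in it the group difference rests on Vehicle 3 against Ctrl. In that fit 16 of the 109 genes called below passed, among them *Dmbt1*, *Mmp7*, *Fkbp5*, *Acadl*, *Pdk4*, *Sult1a1*, *Creb3l3*, *Acot1*, *Fos*, *Egr1*, *Cyp2c55*, *Usp18*, *Ly6a* and Gm28036. The other called genes named below lost their call in it.

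In edgeR's quasi-likelihood test with Benjamini-Hochberg adjustment, 61 genes were higher and 48 lower in vehicle at an adjusted p below 0.05, or 0.447% and 0.352% of the genes tested. Past a 2-fold change as well, 31 were higher (0.227%) and 18 lower (0.132%). For all 109 the 3 libraries of one group lay beyond the 3 of the other. Over all genes tested this held for 8.46% (vehicle higher) and 7.85% (vehicle lower). The same libraries served to call the 109, so this is a description only. DESeq2 called 108 of the 109. The count depended on single libraries. At any fold, the genes higher numbered 13, 23 and 28 without Ctrl 1, 2 and 3 and 94, 123 and 30 without Vehicle 3, 5 and 6. Those lower numbered 7, 18 and 13 without Ctrl 1, 2 and 3 and 75, 35 and 21 without Vehicle 3, 5 and 6. Whichever library was left out, 16 genes passed. They included *Dmbt1*, *Mmp7*, *Fkbp5*, *Acadl*, *Pdk4*, *Sult1a1*, *Pllp*, *Inf2*, *Angptl4*, *Cobl* and Gm28036 among those higher, and *Fos*, *Egr1*, *Cyp2c55* and Gm42418 among those lower. Replicates are separate libraries in the labels, so p-values measure the spread between them.

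**Figure D1:**
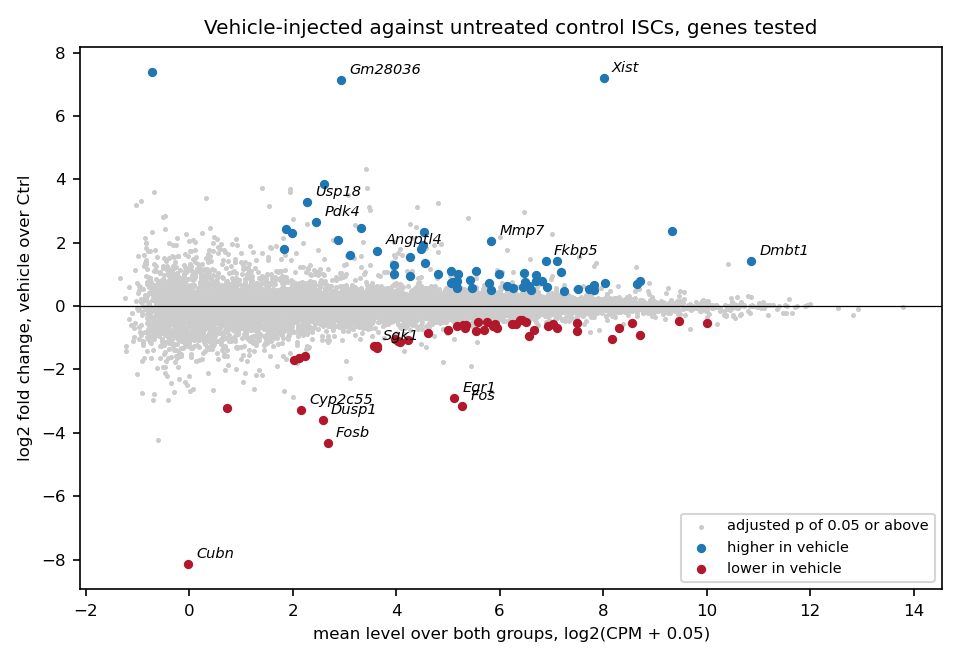
Log2 fold change of vehicle over Ctrl (y axis) against the mean level of each gene tested (x axis, log2 of CPM + 0.05). Blue points are the 61 genes higher and red points the 48 lower in vehicle at an adjusted p below 0.05. Named points include *Pdk4* at 2.66, *Fos* at -3.16 and *Cubn*, which had no count in vehicle.

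Genes of fatty acid oxidation rose in vehicle ISCs. Of 27 list members tested, 10 were higher and none lower at an adjusted p below 0.05 in edgeR, beside the 0.447% of all genes tested that were higher. The median log2 fold change of the list was 0.48 beside 0.0019 over all genes. *Creb3l3*, a transcription factor of liver and gut that acts with PPAR alpha on fasting genes, was at 7.74, 8.26 and 7.14 CPM in Ctrl 1, 2 and 3 and 20.6, 48.0 and 47.3 CPM in Vehicle 3, 5 and 6. The groups did not overlap and Vehicle 3 was the lowest vehicle library (log2 fold change 2.33 ± 0.28, edgeR adjusted p = 0.0047). *Pdk4*, a kinase that shuts pyruvate out of the citrate cycle, was near its counting limit in Ctrl, at 0.945, 1.87 and 1.60 in Ctrl and 9.79, 9.31 and 8.93 CPM in vehicle (log2 fold change 2.66 ± 0.30, edgeR adjusted p = 0.0034). *Angptl4*, a secreted inhibitor of lipoprotein lipase, was at 6.26, 4.64 and 6.09 in Ctrl and 13.7, 20.9 and 22.6 CPM in vehicle (log2 fold change 1.75 ± 0.23, edgeR adjusted p = 0.0066).

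The called enzymes of the oxidation cycle itself moved less, with log2 fold changes of 0.66 to 1.09. *Acadl*, the long-chain acyl-CoA dehydrogenase, was at 88.9, 103 and 87.6 in Ctrl and 183, 198 and 212 CPM in vehicle and was 2.12-fold higher (log2 fold change 1.09 ± 0.09, edgeR adjusted p = 4.0e-04). *Hadha* and *Hadhb*, the subunits of the mitochondrial trifunctional protein, were both higher. *Hadha* was at 295, 329 and 299 in Ctrl and 433, 568 and 499 CPM in vehicle (log2 fold change 0.70, edgeR adjusted p = 0.012). *Hadhb* was at 193, 196 and 204 in Ctrl and 266, 369.5 and 339 CPM in vehicle (log2 fold change 0.72, edgeR adjusted p = 0.015). *Acadvl*, the very-long-chain dehydrogenase, passed narrowly (log2 fold change 0.66, edgeR adjusted p = 0.049). *Acot1* and *Fabp1*, which are not enzymes of the cycle, moved more. *Acot1*, a cytosolic acyl-CoA thioesterase, was at 66.3, 78.1 and 80.4 in Ctrl and 134, 257 and 214 CPM in vehicle (log2 fold change 1.43, edgeR adjusted p = 0.0066). *Fabp1*, the liver-type fatty acid binding protein, was at 9.15, 8.68 and 11.02 in Ctrl and 21.1, 57.8 and 30.1 CPM in vehicle (log2 fold change 1.91, edgeR adjusted p = 0.018). In all of these Vehicle 3 was the lowest vehicle library and still lay above the highest Ctrl library.

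Other members of the list did not pass. The carnitine shuttle enzyme *Cpt1a* was at 224, 256 and 225 in Ctrl and 271, 336 and 367 CPM in vehicle (edgeR adjusted p = 0.10). *Acot2*, a mitochondrial thioesterase, was at 21.3, 22.7 and 19.1 in Ctrl and 27.6, 56.3 and 52.7 CPM in vehicle (edgeR adjusted p = 0.051). *Acaa2*, the thiolase of the last step, was at 207, 214 and 182 in Ctrl and 236, 339.6 and 322 CPM in vehicle (edgeR adjusted p = 0.074). *Acadm*, *Plin2* and *Ehhadh* had log2 fold changes between -0.01 and 0.08. *Fabp2* and *Acsl1* lay lower in every vehicle library without passing, at -0.48 and -0.28. *Cyp4a14* and *Fgf21*, targets of PPAR alpha in liver, were at 0 in all 6 libraries. Of the receptors, *Ppara* was at 17.2, 13.0 and 19.1 in Ctrl and 16.0, 27.0 and 14.9 CPM in vehicle (edgeR adjusted p = 0.80). *Ppard*, named after its values were seen, was lower at 145, 162 and 163 in Ctrl and 106, 104 and 109 CPM in vehicle (log2 fold change -0.56 ± 0.08, edgeR adjusted p = 0.010). Its edgeR adjusted p was 0.11 with the term for high *Xist*.

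Vehicle 3 was the lowest of the 3 vehicle libraries for 22 of the 27 members, beside 48 of all 61 genes called higher. The number of members higher was 4, 7 and 6 without Ctrl 1, 2 and 3 and 15, 9 and 8 without Vehicle 3, 5 and 6. With the term for high *Xist*, 5 members passed, *Acadl*, *Pdk4*, *Creb3l3* and *Acot1* among them, and the median was 0.21. There *Acadl* had a log2 fold change of 0.97 (edgeR adjusted p = 0.012) and *Pdk4* of 2.73 (edgeR adjusted p = 0.020).

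**Figure D2:**
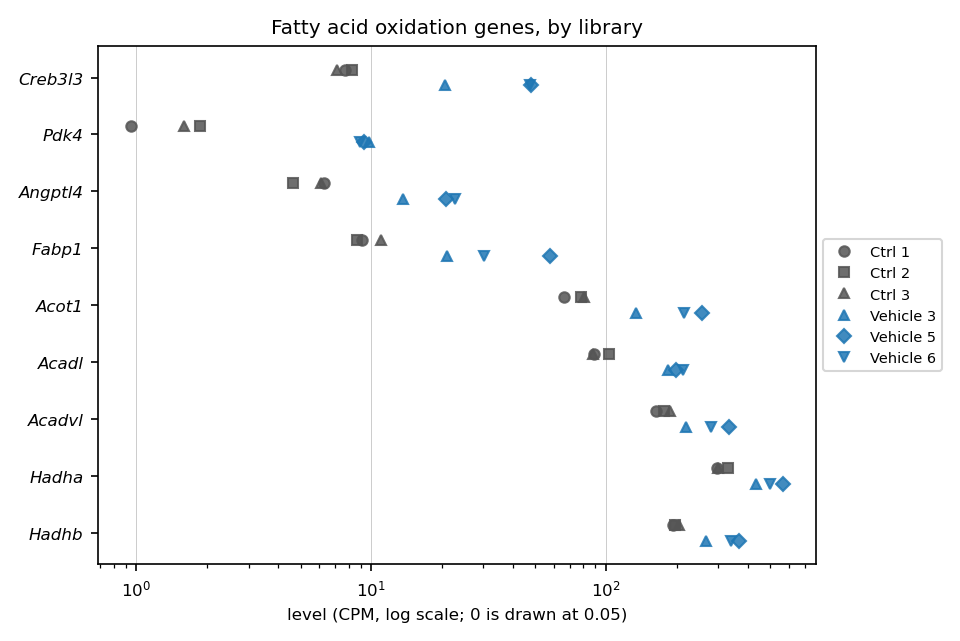
Level of 9 called fatty acid oxidation genes in each library (x axis, CPM on a log scale; 1 row a gene), with Ctrl in grey and vehicle in blue. In every row the 3 vehicle libraries sit to the right of the 3 Ctrl libraries, and Vehicle 5 is the highest for *Acot1* at 257 CPM.

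Of 14 fatty acid synthesis genes tested, 9 had a log2 fold change below 0. The 1 that passed was higher, beside 0.447% of all genes tested that were higher. It was *Acacb*, the mitochondrial acetyl-CoA carboxylase whose product limits *Cpt1a*, at 7.26, 12.1 and 10.4 in Ctrl and 18.7, 47.7 and 37.8 CPM in vehicle (log2 fold change 1.81, edgeR adjusted p = 0.021). The genes that follow were picked from those called after their values were seen and stand on no list. *Mgll*, the monoacylglycerol lipase, was at 0.886, 1.39 and 1.66 in Ctrl and 3.75, 10.5 and 5.12 CPM in vehicle (log2 fold change 2.30, edgeR adjusted p = 0.043). *Eci2*, an isomerase for unsaturated fatty acids, *Slc27a1*, a fatty acid transporter, and *Agpat4*, an acyltransferase of phospholipid synthesis, had log2 fold changes of 0.78, 0.63 and 1.02 (edgeR adjusted p = 0.012, 0.043 and 0.020). *Cyp27a1*, the sterol 27-hydroxylase, was at 10.8, 15.3 and 13.9 in Ctrl and 25.6, 38.1 and 38.0 CPM in vehicle (log2 fold change 1.35 ± 0.19, edgeR adjusted p = 0.010). With the term for high *Xist*, edgeR adjusted p was 0.29 for *Acacb*, 0.43 for *Mgll*, 0.18 for *Eci2*, 0.47 for *Slc27a1*, 0.26 for *Agpat4* and 0.12 for *Cyp27a1*.

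Glucocorticoid targets split. *Fkbp5*, a co-chaperone that limits hormone binding by the receptor and that the study follows as its main target, was at 68.9, 66.0 and 58.8 CPM in Ctrl 1, 2 and 3 and 140.4, 185 and 192 CPM in Vehicle 3, 5 and 6. It was 2.68-fold higher (log2 fold change 1.42 ± 0.12, edgeR adjusted p = 4.0e-04), with no overlap of the groups. *Hif3a*, a hypoxia-factor family member induced by the hormone, was at 0.650, 1.33 and 1.35 in Ctrl and 3.63, 10.1 and 4.56 CPM in vehicle (log2 fold change 2.45 ± 0.47, edgeR adjusted p = 0.043). *Angptl4*, given above, is also on the list. *Sgk1*, the serum- and glucocorticoid-regulated kinase, was lower at 14.7, 21.6 and 13.9 in Ctrl and 6.53, 6.89 and 7.56 CPM in vehicle (log2 fold change -1.25 ± 0.21, edgeR adjusted p = 0.021). *Dusp1*, a phosphatase that ends MAP kinase signalling, was lower as well and is given with the immediate early genes. The remaining 14 of 19 members tested did not pass, and the list's median was -0.13. Over all genes tested, 0.447% were higher and 0.352% lower. *Tsc22d3*, the leucine zipper protein GILZ, was at 40.3, 35.2 and 30.03 in Ctrl and 28.7, 33.6 and 33.9 CPM in vehicle (edgeR adjusted p = 0.80). *Per1*, of the clock, was at 45.8, 58.4 and 48.3 in Ctrl and 32.6, 55.0 and 40.1 CPM in vehicle (edgeR adjusted p = 0.65). *Hpgd*, which degrades prostaglandins, was at 42.8, 45.6 and 40.6 in Ctrl and 41.7, 37.8 and 38.0 CPM in vehicle (edgeR adjusted p = 0.71). The receptor *Nr3c1* was at 179.5, 169 and 159.7 in Ctrl and 160.4, 168 and 165 CPM in vehicle (edgeR adjusted p = 0.90). *Hsd11b2*, the enzyme that inactivates corticosterone, was named after its values were seen. It was at 8.38, 9.17 and 11.6 in Ctrl and 20.7, 27.7 and 37.0 CPM in vehicle, or 2.94-fold higher (log2 fold change 1.56 ± 0.22, edgeR adjusted p = 0.010). The term for high *Xist* left the *Fkbp5* call and removed the others, at an edgeR adjusted p of 0.40 for *Hif3a*, 0.073 for *Angptl4*, 0.17 for *Sgk1*, 0.18 for *Dusp1* and 0.11 for *Hsd11b2*.

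The study's own contrasts put these levels on a scale. The 3 comparisons share Ctrl or vehicle libraries, so they are not independent. In all, 1.89% of genes tested passed in Stress against Ctrl and 8.13% in CORT against vehicle. *Fkbp5* had a log2 fold change of 1.42 in vehicle against Ctrl, 1.72 (edgeR adjusted p = 1.5e-04) in Stress against Ctrl and 2.42 (edgeR adjusted p = 3.9e-05) in CORT against vehicle. On a common scaling of the 12 libraries it lay at 57.9 to 67.8 CPM in Ctrl, 137 to 193 in vehicle, 185 to 250.5 in Stress and 879 to 971 in CORT. Vehicle and Stress overlapped. *Tsc22d3* had -0.13, 1.54 (edgeR adjusted p = 1.5e-04) and 2.27 (edgeR adjusted p = 5.8e-05) in the same order. *Sgk1* had -1.25, 3.60 (edgeR adjusted p = 6.7e-05) and 5.80 (edgeR adjusted p = 7.2e-04), lower in vehicle and higher in both other contrasts. *Pdk4* had 2.66, 5.70 (edgeR adjusted p = 1.2e-04) and 4.10 (edgeR adjusted p = 1.8e-04).

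Other genes that the study names for these cells did not pass. *Ascl2*, a stem cell transcription factor, was at 149, 139 and 148 in Ctrl and 151, 173 and 163 CPM in vehicle (edgeR adjusted p = 0.52). *Myc* was at 259, 296 and 247 in Ctrl and 191, 303 and 317 CPM in vehicle (edgeR adjusted p = 0.98). *Herpud1*, a gene of protein degradation at the endoplasmic reticulum, was at 90.6, 118 and 80.5 in Ctrl and 67.6, 91.4 and 86.0 CPM in vehicle (edgeR adjusted p = 0.62). *Trp53inp1*, a stress-induced target of p53, lay lower in every vehicle library, at 30.5, 24.7 and 17.5 in Ctrl and 15.4, 15.6 and 12.0 CPM in vehicle. It did not pass (log2 fold change -0.76 ± 0.21, edgeR adjusted p = 0.15).

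Immediate early genes fell in vehicle ISCs. Of 18 members tested, 6 were lower and none higher in edgeR, beside the 0.352% of all genes tested that were lower. In 17 the log2 fold change was below 0, and the median was -0.78. *Fos* was at 51.5, 56.6 and 102 CPM in Ctrl 1, 2 and 3 and 8.28, 4.30 and 10.4 CPM in Vehicle 3, 5 and 6. The groups did not overlap and Ctrl 3 was highest (log2 fold change -3.16 ± 0.32, edgeR adjusted p = 0.0015). *Fosb*, its paralog, was at 8.33, 6.87 and 20.9 in Ctrl and 1.57, 0 and 0.326 CPM in vehicle (log2 fold change -4.32 ± 0.77, edgeR adjusted p = 0.030). *Egr1*, a zinc finger factor induced by growth factors, was at 45.7, 42.8 and 94.5 in Ctrl and 8.95, 9.43 and 6.29 CPM in vehicle (log2 fold change -2.91 ± 0.30, edgeR adjusted p = 0.0015). *Jun*, the partner of FOS in the AP-1 dimer, was lower by less, at 227, 212 and 249.98 in Ctrl and 148, 115 and 138 CPM in vehicle (log2 fold change -0.78 ± 0.10, edgeR adjusted p = 0.0066). *Dusp1* was at 6.91, 6.99 and 19.1 in Ctrl and 0.605, 0.236 and 1.66 CPM in vehicle (log2 fold change -3.60 ± 0.59, edgeR adjusted p = 0.020). The vehicle values of *Fosb* and *Dusp1* lay near the counting limit. *Zfp36*, which speeds the decay of inflammatory mRNAs, was at 56.4, 69.4 and 70.3 in Ctrl and 36.5, 36.3 and 42.1 CPM in vehicle (log2 fold change -0.77 ± 0.12, edgeR adjusted p = 0.012). Reads of *Dusp1*, *Jun* and *Zfp36* can be shared with a gene on the opposite strand that overlaps their exons.

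Members that did not pass mostly leaned the same way. *Nr4a1*, an orphan nuclear receptor, was at 2.95, 2.23 and 9.91 in Ctrl and 1.09, 1.24 and 1.69 CPM in vehicle (edgeR adjusted p = 0.18). *Ier2* was at 162, 162 and 185 in Ctrl and 118, 117 and 141 CPM in vehicle (edgeR adjusted p = 0.078). *Klf6*, a Krüppel-like factor, was at 33.8, 26.9 and 26.5 in Ctrl and 18.4, 18.7 and 18.7 CPM in vehicle (edgeR adjusted p = 0.076). None of these overlapped between groups. *Btg2*, *Klf4* and *Maff* overlapped between groups, with log2 fold changes of -0.06, -0.10 and 0.24. *Cyr61* and *Edn1*, whose secreted products serum induces, are not on the list and were lower. *Cyr61* was at 15.1, 13.99 and 23.4 in Ctrl and 7.86, 6.13 and 6.94 CPM in vehicle (edgeR adjusted p = 0.022). *Edn1*, the precursor of endothelin 1, was at 7.97, 5.79 and 7.20 in Ctrl and 2.90, 1.94 and 2.15 CPM in vehicle (edgeR adjusted p = 0.035).

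Over the 12 libraries, the split in these genes ran between the pair of groups from the restraint experiment and the pair from the injection experiment. *Fos* lay at 50.8 to 100.3 CPM in Ctrl and 79.3 to 155 CPM in Stress, against 4.22 to 10.4 CPM in vehicle and 8.02 to 15.1 CPM in CORT. *Egr1* lay at 42.2 to 93.0 and 51.2 to 111 CPM against 6.30 to 9.26 and 3.73 to 6.58 CPM. *Fosb*, *Jun* and *Dusp1* divided in the same way, whereas *Zfp36* in CORT (39.2 to 59.7 CPM) reached into the range of Ctrl (55.5 to 69.2 CPM). In all, 26 of the 109 called genes had all 6 libraries of the injection experiment on one side of all 6 of the restraint experiment, 11 of them higher and 15 lower. The genes were called for a difference between 6 of these libraries, and the share over all genes tested was not taken. The count is therefore a description only, with nothing to set it against. In the tests of its own contrasts, *Fos* had a log2 fold change of 0.68 (edgeR adjusted p = 0.29) in Stress against Ctrl and 0.64 (edgeR adjusted p = 0.28) in CORT against vehicle.

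**Figure D3:**
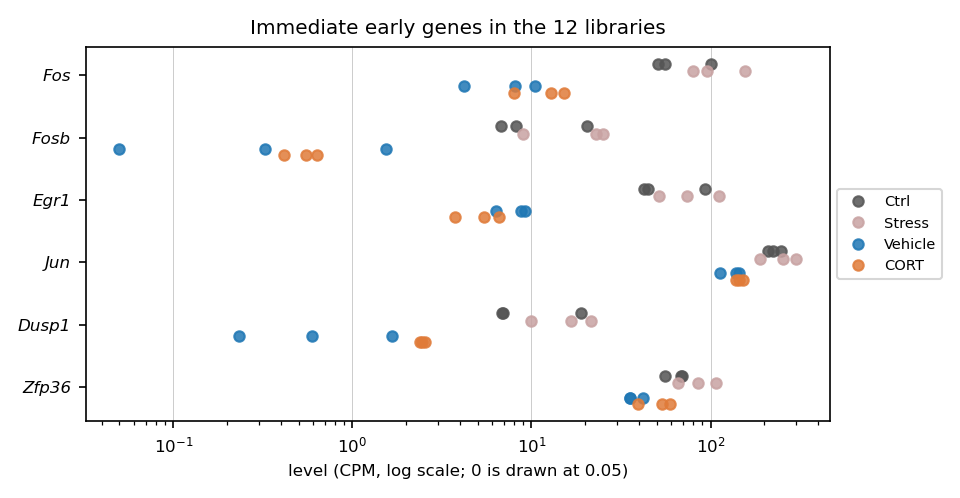
Level of the 6 called immediate early genes in the 12 libraries (x axis, CPM on a log scale, with 0 drawn at 0.05; 1 row a gene, 1 point a library, coloured by group). Ctrl and Stress points sit to the right of vehicle and CORT points for *Fos*, *Fosb*, *Egr1*, *Jun* and *Dusp1*, and overlap with CORT for *Zfp36*.

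With the term for high *Xist*, *Fos* had a log2 fold change of -3.08 (edgeR adjusted p = 0.044) and *Egr1* of -2.77 (edgeR adjusted p = 0.047). The list's median was -0.74 there, and the others did not pass, at an edgeR adjusted p of 0.28 for *Fosb*, 0.11 for *Jun*, 0.18 for *Dusp1* and 0.082 for *Zfp36*. Members lower numbered 3, 4 and 3 without Ctrl 1, 2 and 3 and 6, 6 and 5 without Vehicle 3, 5 and 6.

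Promoter windows of *Dusp1* and *Zfp36* are shown because each holds a short motif for factors that act on immediate early genes. Each stretch is cut from the 250 bases before to 50 bases after the start of the gene (RefSeq, GRCm38.p6). The *Dusp1* stretch is chr17:26508578-26508645 on the minus strand, with a cAMP response element (TGACGTCA) in capitals. The *Zfp36* stretch is chr7:28379247-28379316 on the minus strand, with a CArG box in capitals. This motif of serum response factor was added after the data were seen.
Dusp1: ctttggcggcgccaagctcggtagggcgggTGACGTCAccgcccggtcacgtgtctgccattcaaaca
Zfp36: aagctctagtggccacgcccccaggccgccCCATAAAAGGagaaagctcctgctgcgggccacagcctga
Either motif was searched on both strands. Among 9710 tested genes with a window, 3.70% held the cAMP response element and 1.62% the CArG box. Of 15 immediate early genes with a window, 3 held the former (*Btg2*, *Maff* and *Dusp1*) and 2 the latter (*Egr2* and *Zfp36*). *Btg2*, *Maff* and *Egr2* were not called. *Egr1* and *Cyr61* had no window in the table.

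Genes of sterol synthesis and uptake fell by small amounts. Of 25 members tested, 5 were lower and none higher in edgeR, beside 0.352% of all genes tested, and 13 lay lower without overlap, beside 7.85%. The median log2 fold change was -0.30. *Npc1l1*, which takes up cholesterol from the gut lumen, was at 23.1, 23.0 and 29.7 in Ctrl and 10.4, 12.7 and 12.8 CPM in vehicle (log2 fold change -1.07 ± 0.17, edgeR adjusted p = 0.015). The enzymes *Idi1*, *Fdps* and *Cyp51*, which stand in the isoprenoid and lanosterol steps, had log2 fold changes of -0.63, -0.69 and -0.63 (edgeR adjusted p = 0.043, 0.034 and 0.034). *Fdps* was at 46.8, 57.3 and 44.9 in Ctrl and 32.2, 27.4 and 32.4 CPM in vehicle and shares exons with a gene model on the same strand. *Abcg8*, a subunit of the sterol exporter of enterocytes, was lower at 58.0, 52.5 and 57.7 in Ctrl and 42.3, 37.7 and 38.3 CPM in vehicle (log2 fold change -0.51, edgeR adjusted p = 0.044). Members lower numbered 0, 1 and 1 without Ctrl 1, 2 and 3 and 6, 2 and 2 without Vehicle 3, 5 and 6. With the term for high *Xist*, 0 passed and the median was -0.19. *Npc1l1* passed in 4 of 6 fits without 1 library and *Idi1*, *Fdps* and *Cyp51* in 1 or 2.

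Of 18 members tested of the NRF2 and xenobiotic list, 3 were lower and none higher, beside 0.352% of all genes tested that were lower. *Cyp2c55*, a cytochrome P450 of the gut that responds to xenobiotic receptors, was at 5.85, 8.56 and 9.66 CPM in Ctrl 1, 2 and 3 and 0.786, 0.707 and 0.945 CPM in Vehicle 3, 5 and 6 (log2 fold change -3.27 ± 0.34, edgeR adjusted p = 0.0015). Ctrl held every value above 1 CPM. The vehicle values lay near the counting limit, at 0.729, 0.711 and 0.384 CPM in Vehicle 3, 5 and 6, so the size of the change is uncertain. *Cyp3a11*, its relative, was at 2.48, 3.08 and 3.08 in Ctrl and 0.605, 0.236 and 0.130 CPM in vehicle (log2 fold change -3.21 ± 0.62, edgeR adjusted p = 0.043). It is on the list, as are *Gstm1*, a glutathione transferase (log2 fold change -0.58, edgeR adjusted p = 0.021), and *Abcb1a*, the drug efflux pump (log2 fold change -0.78, edgeR adjusted p = 0.015). The xenobiotic receptor *Nr1i2* was at 71.1, 72.4 and 77.9 in Ctrl and 71.0, 79.1 and 77.4 CPM in vehicle (edgeR adjusted p = 0.92). *Cubn*, the receptor for vitamin B12 bound to intrinsic factor and a gene of the ileum, was at 1.65, 2.05 and 1.91 in Ctrl and 0, 0 and 0 CPM in vehicle. It was at least 3.08-fold lower against the limit of 12 counts per library that a count of 0 allows (edgeR adjusted p = 0.012). Of other genes tied to position along the gut, *Fabp6*, the ileal bile acid binding protein, was at 2.72, 2.89 and 3.20 in Ctrl and 0.967, 0 and 1.17 CPM in vehicle (edgeR adjusted p = 0.34). *Osr2* was at 31.9, 36.4 and 29.7 in Ctrl and 37.5, 38.998 and 38.3 CPM in vehicle (edgeR adjusted p = 0.53). *Gata4*, a factor of the upper small intestine, was at 195, 194 and 196 in Ctrl and 202, 212 and 209 CPM in vehicle (edgeR adjusted p = 0.71). *Lct*, the lactase gene, was at 7.09, 6.39 and 7.32 in Ctrl and 3.32, 3.53 and 1.79 CPM in vehicle (edgeR adjusted p = 0.11). The term for high *Xist* gave an edgeR adjusted p of 0.44 for *Cyp3a11*, 0.057 for *Gstm1*, 0.18 for *Abcb1a* and 0.14 for *Cubn*.

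Further named genes that were lower had varied roles. *Slc16a12*, a transporter of creatine and monocarboxylates, was at 22.3, 20.6 and 23.8 in Ctrl and 12.2, 10.8 and 8.34 CPM in vehicle (log2 fold change -1.10 ± 0.18, edgeR adjusted p = 0.018). *Nid2*, a basement membrane protein, was at 20.1, 23.6 and 19.5 in Ctrl and 9.79, 11.5 and 9.39 CPM in vehicle (log2 fold change -1.05 ± 0.16, edgeR adjusted p = 0.016). *Clca4b*, of the calcium-activated chloride channel regulator family, was at 392, 411 and 351 in Ctrl and 241, 131 and 194 CPM in vehicle (log2 fold change -1.03 ± 0.17, edgeR adjusted p = 0.021). *Arrdc3*, an arrestin-domain protein, was at 23.3, 19.2 and 26.6 in Ctrl and 11.4, 12.4 and 7.89 CPM in vehicle (log2 fold change -1.13 ± 0.20, edgeR adjusted p = 0.030). *Sesn1*, a sestrin that restrains mTORC1, was lower as well, at 36.0, 42.4 and 41.7 in Ctrl and 21.9, 24.3 and 24.8 CPM in vehicle (log2 fold change -0.76 ± 0.12, edgeR adjusted p = 0.019). On the list of insulin and FoxO signalling, *Sesn1* and *Sgk1* were lower and *Eif4ebp1*, the translation repressor that mTORC1 inactivates, was higher (log2 fold change 0.57 ± 0.11, edgeR adjusted p = 0.037). They were the calls among 28 members tested with a median of -0.10, beside 0.447% of all genes tested higher and 0.352% lower. *Slc7a5*, the large amino acid transporter, was higher (log2 fold change 0.58 ± 0.10, edgeR adjusted p = 0.030). It was the 1 of 16 tested members of the amino acid response list that passed, beside the same 0.447%. None of these genes passed with the term for high *Xist*, at an edgeR adjusted p of 0.28 for *Slc16a12*, 0.13 for *Nid2*, 0.27 for *Clca4b*, 0.32 for *Arrdc3*, 0.089 for *Sesn1*, 0.29 for *Eif4ebp1* and 0.35 for *Slc7a5*.

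The gene with the smallest adjusted p among named symbols was *Dmbt1*, a mucosal scavenger receptor that binds bacteria, at 969, 976 and 1087 CPM in Ctrl 1, 2 and 3 and 2439.6, 3035 and 2644 CPM in Vehicle 3, 5 and 6 (log2 fold change 1.42 ± 0.10, edgeR adjusted p = 8.2e-05). *Mmp7*, the matrix metalloprotease with which Paneth cells activate defensins, was at 26.0, 24.2 and 16.6 in Ctrl and 80.5, 93.8 and 101 CPM in vehicle (log2 fold change 2.04 ± 0.16, edgeR adjusted p = 1.8e-04). A gene on the opposite strand overlaps its exons. The other 5 Paneth cell markers did not pass and had log2 fold changes from -0.58 to -0.18. *Lyz1*, which encodes lysozyme, was at 43.6, 34.6 and 46.8 in Ctrl and 33.7, 31.5 and 40.2 CPM in vehicle. *Defa24*, an alpha-defensin gene, was at 53.1, 37.9 and 46.2 in Ctrl and 35.5, 38.6 and 38.2 CPM in vehicle. *Dmbt1* had log2 fold changes of 0.99 (edgeR adjusted p = 0.016) in Stress against Ctrl and -0.34 (edgeR adjusted p = 0.11) in CORT against vehicle. *Mmp7* had 0.87 (edgeR adjusted p = 0.029) and -1.32 (edgeR adjusted p = 4.8e-04). In bulk RNA, fewer cells of a type and less RNA per cell cannot be told apart.

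Further genes were higher. The sulfotransferase *Sult1a1* was at 4.07, 2.89 and 2.09 in Ctrl and 12.4, 20.9 and 16.9 CPM in vehicle (log2 fold change 2.47 ± 0.28, edgeR adjusted p = 0.0035). Its relative *Sult1d1* was at 57.9, 59.6 and 57.0 in Ctrl and 90.3, 139 and 127 CPM in vehicle (log2 fold change 1.03 ± 0.14, edgeR adjusted p = 0.0066). *Pllp*, a membrane protein of endosomes and myelin, was at 21.7, 19.4 and 22.2 in Ctrl and 38.6, 46.8 and 49.8 CPM in vehicle (log2 fold change 1.10 ± 0.13, edgeR adjusted p = 0.0047). *Inf2*, a formin that builds and severs actin filaments, was at 4.49, 3.68 and 4.55 in Ctrl and 11.6, 13.0 and 14.1 CPM in vehicle (log2 fold change 1.60 ± 0.21, edgeR adjusted p = 0.0066). *Sult1a1*, *Pllp* and *Inf2* were among the called genes whose vehicle and CORT libraries all lay above all Ctrl and Stress libraries. Their vehicle and Ctrl libraries had already served to call them, so this is a description only. In the fit with the term for high *Xist*, edgeR adjusted p was 0.064 for *Sult1d1*, 0.063 for *Pllp* and 0.069 for *Inf2*. Gm28036, a readthrough model over the locus of *Cpne1*, *Rbm12* and *Nfs1* on chromosome 2, had the smallest adjusted p of all. It was at 0.0590, 0.0603 and 0.185 in Ctrl and 18.1, 11.5 and 15.8 CPM in vehicle (log2 fold change 7.14 ± 0.41, edgeR adjusted p = 2.5e-05). Over the 12 libraries it ranged from 0.0617 to 41.2 CPM within Stress and from 0.0691 to 57.1 CPM within CORT. Since it shares exons with all 3 genes, its count is uncertain.

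The interferon genes were high in 2 of the 3 vehicle libraries. *Irf7*, the factor that amplifies the response, was at 16.9, 28.5 and 14.2 CPM in Ctrl 1, 2 and 3 and 317, 29.7 and 124 CPM in Vehicle 3, 5 and 6 (log2 fold change 2.98 ± 0.63, edgeR adjusted p = 0.062). *Ifit3* was at 1.42, 2.11 and 0.985 in Ctrl and 43.6, 2.83 and 14.02 CPM in vehicle (log2 fold change 3.73 ± 0.77, edgeR adjusted p = 0.056). *Isg15*, a ubiquitin-like modifier, was at 2.24, 7.90 and 2.95 in Ctrl and 61.7, 6.24 and 46.3 CPM in vehicle (log2 fold change 3.12 ± 0.69, edgeR adjusted p = 0.071). *Oasl2*, of the oligoadenylate synthetase family, was at 38.3, 67.0 and 26.6 in Ctrl and 362, 54.6 and 221 CPM in vehicle (log2 fold change 2.27 ± 0.53, edgeR adjusted p = 0.091). Vehicle 3 was highest and Vehicle 6 followed, while Vehicle 5 was close to Ctrl 2. These were named after their values were seen. Of 35 members tested, 34 had a log2 fold change above 0, beside 50.3% of all genes, and the median was 1.59. In edgeR 1 passed, *Usp18*, which removes ISG15 from proteins. It was at 0.827, 1.27 and 0.554 in Ctrl and 16.0, 1.94 and 8.12 CPM in vehicle (log2 fold change 3.29 ± 0.65, edgeR adjusted p = 0.047). 29 members had an unadjusted p below 0.05, and DESeq2 called 5.

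Vehicle 3 was the highest vehicle library for 30 of the 35 members and Vehicle 5 the lowest for 32. Members higher numbered 0, 0 and 0 without Ctrl 1, 2 and 3 and 0, 21 and 0 without Vehicle 3, 5 and 6. In the fit with the term for high *Xist*, 6 passed, and its group difference rests on Vehicle 3. The summed level of the list was 1582, 2134 and 1169 CPM in Ctrl and 3956, 1795 and 2973 CPM in vehicle. The antigen-presenting class II genes did not follow. Their summed level was 1434, 1769.5 and 564 CPM in Ctrl and 736, 1258 and 960.3 CPM in vehicle, with a median log2 fold change of -0.33. None of 7 passed in edgeR, with 0 at an unadjusted p below 0.05 and 0 by DESeq2. *Ly6a*, a surface protein that interferon induces and that marks injured epithelium, was at 1.004, 0.844 and 0.492 in Ctrl and 22.0, 2.77 and 9.26 CPM in vehicle (log2 fold change 3.84 ± 0.66, edgeR adjusted p = 0.022). The order of the libraries was the same. Across groups, *Irf7* was also at 190.4 CPM in CORT 2, against 16.9 and 30.1 CPM in the other CORT libraries and 12.1 to 26.8 CPM in Stress.

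**Figure D4:**
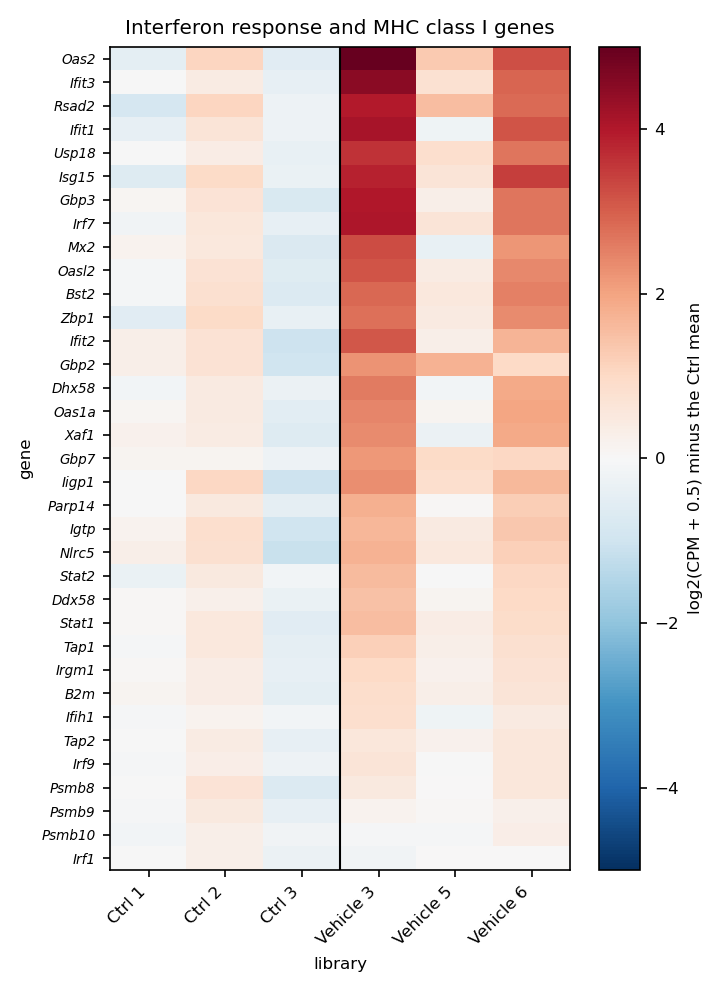
Level of the 35 interferon and MHC class I genes tested (rows, ordered by fold change) in each library (columns), as log2(CPM + 0.5) minus the mean of the 3 Ctrl libraries. Vehicle 3 and Vehicle 6 are red for most rows and Vehicle 5 is near white, apart from rows such as *Gbp2*, *Rsad2* and *Oas2*.

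The promoters of *Ifit1* and *Ifit3* show an element that many, but not all, members of the list hold. Ifit1 is taken from chr19:34640755-34640843 on the plus strand and Ifit3 from chr19:34583343-34583446 on the plus strand (GRCm38.p6, RefSeq). Capitals mark each match to the core of the interferon-stimulated response element, GAAANNGAAA or its reverse complement. This motif was added after the data were seen.
Ifit1: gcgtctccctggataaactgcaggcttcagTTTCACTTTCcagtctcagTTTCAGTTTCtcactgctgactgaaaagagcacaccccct
Ifit3: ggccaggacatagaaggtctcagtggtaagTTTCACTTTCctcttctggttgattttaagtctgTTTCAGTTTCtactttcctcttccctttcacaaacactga
Both held 2 matches, upstream of the start. The core was found in 15 of 25 list members with a window, beside 3.61% of all tested genes with one. *Irf7* and *Oasl2* had a window without it. *Ifit1* itself was at 0.827, 2.23 and 0.985 in Ctrl and 29.98, 1.001 and 15.0 CPM in vehicle (edgeR adjusted p = 0.11). *Usp18* and *Oas2* had no window.

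Clock genes were tested as well. *Tef*, a factor of the Dbp family that follows the clock, was the 1 of 23 clock genes that passed (higher, beside 0.447% of all genes tested). It was at 58.2, 45.5 and 62.0 in Ctrl and 80.6, 82.5 and 93.6 CPM in vehicle (log2 fold change 0.63 ± 0.12, edgeR adjusted p = 0.037). *Dbp* was at 13.5, 13.6 and 9.29 in Ctrl and 10.6, 13.5 and 25.3 CPM in vehicle (edgeR adjusted p = 0.64). *Per2* was at 26.2, 19.5 and 29.7 in Ctrl and 31.7, 39.7 and 36.5 CPM in vehicle (edgeR adjusted p = 0.22). *Arntl*, whose protein drives the clock with CLOCK, was at 24.4, 27.4 and 25.3 in Ctrl and 20.4, 12.8 and 15.8 CPM in vehicle (edgeR adjusted p = 0.15). *Nr1d1*, which represses *Arntl*, was at 74.4, 70.2 and 76.5 in Ctrl and 58.5, 53.1 and 58.4 CPM in vehicle (edgeR adjusted p = 0.088). In Stress against Ctrl and CORT against vehicle, *Tef* had log2 fold changes of -2.35 (edgeR adjusted p = 0.0025) and -2.30 (edgeR adjusted p = 1.2e-05), opposite to its sign here. Its edgeR adjusted p with the term for high *Xist* was 0.33.

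None of 37 S phase genes and none of 26 genes of G2 and mitosis passed in edgeR or DESeq2. Of them 2 and 1 had an unadjusted p below 0.05, with medians of 0.04 and 0.04. None of 18 genes of the ISC signature and 16 Wnt targets passed in edgeR, with 4 and 3 at an unadjusted p below 0.05 and 1 and 0 called by DESeq2. All 29 ribosome biogenesis genes had a log2 fold change above 0, with a median of 0.16, and 0 passed in edgeR (10 at an unadjusted p below 0.05, 1 by DESeq2). The unfolded protein response and heat shock lists had 0 and 0 members past the edgeR test, 2 and 2 at an unadjusted p below 0.05 and 0 by DESeq2, with medians of -0.01 and 0.03. Of the hypoxia list *Hif3a* alone passed among 18 members, and of the osmotic response *Sgk1* alone among 6. Over all genes tested, 0.447% were higher and 0.352% lower. The lists of antimicrobial defence (14 tested), NF-kappaB targets (8), Notch and secretory fate (11) and upper small intestine (5) had no member past the edgeR test, 6, 2, 4 and 2 at an unadjusted p below 0.05 and 0, 0, 0 and 1 by DESeq2. The 21 stem cell, Wnt and proliferation genes that the study chose on these samples had none past the edgeR test, 3 at an unadjusted p below 0.05 and 1 by DESeq2.

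**Figure D5:**
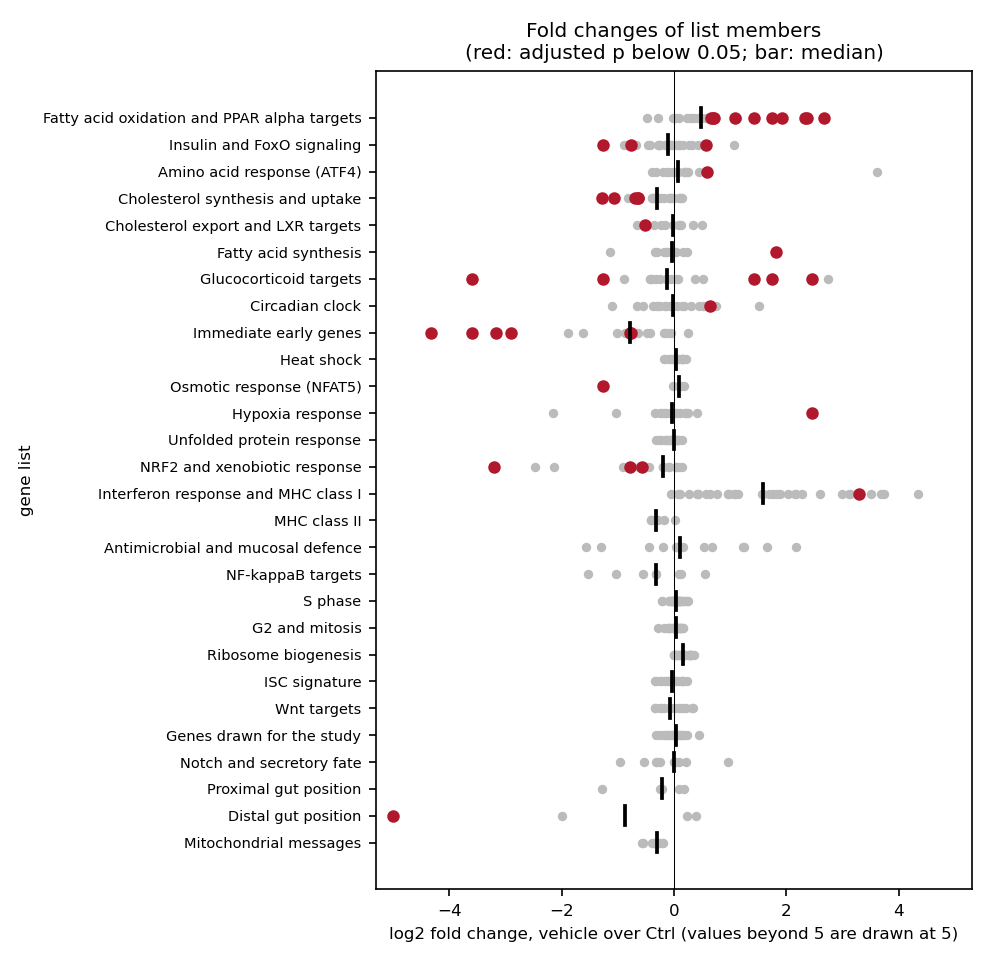
Log2 fold change of vehicle over Ctrl (x axis) for every tested member of 28 gene lists (rows), with members past an adjusted p of 0.05 in red and the list median as a bar. Fatty acid oxidation genes lie to the right (median 0.48), immediate early genes to the left (median -0.78) and interferon genes far to the right with 1 red point (median 1.59).

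Markers of other cells and of RNA quality were followed as summed levels. The summed level of the 6 markers of each type was 137 to 175 CPM in Ctrl and 189 to 212 CPM in vehicle for Paneth cells, *Mmp7* among them. Without *Mmp7* the other 5 summed to 113 to 149 CPM in Ctrl and 108 to 112 CPM in vehicle, a sum taken after the data were seen, and lay lower in vehicle. The sum was 272 to 301 CPM in Ctrl and 249 to 311 CPM in vehicle for enterocytes. For goblet cells it was 477 to 600.1 CPM in Ctrl and 418 to 580.2 CPM in vehicle. For enteroendocrine cells it was 31.4 to 65.7 CPM in Ctrl and 13.96 to 35.9 CPM in vehicle. Those of tuft cells summed to 10.5 to 13.97 CPM in Ctrl and 6.71 to 8.31 CPM in vehicle and lay lower in vehicle without overlap. None of the 3 tested passed in edgeR (1 at an unadjusted p below 0.05, 0 by DESeq2). *Fabp1* was the 1 enterocyte marker that passed. *Apoa1*, another enterocyte gene, was at 22.3, 28.3 and 28.4 in Ctrl and 16.4, 22.3 and 9.71 CPM in vehicle (edgeR adjusted p = 0.29). The sucrase-isomaltase gene *Sis* was at 22.4, 19.2 and 26.8 in Ctrl and 15.7, 14.4 and 7.17 CPM in vehicle (edgeR adjusted p = 0.18). The 13 mitochondrially encoded messages all had a log2 fold change below 0, with a median of -0.31. Their summed level was 23801, 20019 and 26205 CPM in Ctrl and 23981, 18217 and 14553 CPM in vehicle. None passed in edgeR (6 at an unadjusted p below 0.05, 1 by DESeq2). Gm42418 and *Rn18s-rs5*, overlapping models at a ribosomal RNA repeat, were lower. Gm42418 was at 462, 545 and 637 in Ctrl and 328, 274 and 273 CPM in vehicle (log2 fold change -0.91 ± 0.12, edgeR adjusted p = 0.0066). *Rn18s-rs5* was at 1296, 1104 and 1226 in Ctrl and 827, 887 and 812 CPM in vehicle (log2 fold change -0.52 ± 0.09, edgeR adjusted p = 0.019). Both lost the call with the term for high *Xist*, at an edgeR adjusted p of 0.10 for Gm42418 and 0.11 for *Rn18s-rs5*. The part of the sorted cells' makeup, of sex and of ribosomal RNA carry-over in the results above was not tested beyond these values.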

How the data were processed

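The authors deposited 1 table of estimated counts for the 12 libraries (47729 genes) and, for each library, FPKM, TPM and per-base coverage, a signal that is not divided by library size. The labels name HISAT2 2.2.1, StringTie 2.2.1 and mm10, while the study's methods describe counting with featureCounts. Coverage times length gave about 75 bases per count in genes with 1 transcript, so the counts are covered bases over a fixed length, and 3 read pairs make up to 12 counts. Strand was not used in counting as far as stated, so overlapping genes can share counts. Samples were grouped by label, and 0 columns had no sample.

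Vehicle and Ctrl were compared on 3 and 3 libraries with edgeR 4.0.16 in R 4.3.3 (TMM, filterByExpr, quasi-likelihood F-test, two-sided, Benjamini-Hochberg). Stress against Ctrl and CORT against vehicle were fitted alike. The fit of vehicle against Ctrl was also run on simulated counts. These were drawn independently, without a sex difference and without the count unit of these libraries, so the run could not check the fit for either. Genes passed at an adjusted p below 0.05, with a 2-fold change where stated. The SE is the absolute log2 fold change over the square root of F. CPM values use TMM factors over the 6 libraries, or over the 12 where stated. DESeq2 1.42.0 and limma 3.58.1 (on deposited FPKM, log2 scale) were alternatives, as were other filters and scalings, thinned counts, and fits without 1 library. TPM was not used for a test.

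The comparison, the gene lists and the rule for named genes were chosen with earlier results of these data known. The rule takes, in each direction, the 12 genes past 2-fold that rank first by adjusted p and whose groups do not overlap (named symbols only), list members that passed, genes the study names, sex-linked genes and markers. Lists are described by counts and medians over all their tested members, some of which are not reported by name here. Of the tested genes, 9710 had a RefSeq promoter window by symbol. 47224 identifiers matched the reference, and for the 126 symbols that occur more than once the gene with the highest count kept the symbol.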

Additional observations from a re-analysis of the deposited data

How the results depend on the processing

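The main counts (31 and 18 past 2-fold, 61 and 48 at any fold) moved by at most 1.5 times with DESeq2's size factors, no filter, at least 10 counts in every library, all 12 libraries in the fit, thinned counts, or chromosomes X and Y left out. DESeq2 gave 54 and 35 genes higher and lower past 2-fold, 164 and 125 at any fold. On log2(FPKM + 1), limma gave 16 and 4 genes higher and lower past 2-fold, 23 and 11 at any fold at a mean FPKM of at least 1, and 0 and 0 genes higher and lower past 2-fold, 0 and 0 at any fold without that filter, with 1716 genes at an unadjusted p below 0.05. At a pseudocount of 0.1 limma gave 18 and 3 genes higher and lower past 2-fold, 22 and 10 at any fold. The term for high Xist, added after the data were seen, gave 28 and 5 genes higher and lower past 2-fold, 33 and 5 at any fold. Leaving out 1 library gave 12 to 88 higher and 5 to 31 lower past 2-fold, and 13 to 123 and 7 to 75 at any fold, fewest without Ctrl 1. The cause was not tested.

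Fatty acid oxidation members higher (10) numbered 16 in DESeq2, 6, 0 and 6 in the limma settings in the above order, 5 with the Xist term and 4 to 15 without 1 library, and their median (0.48) was 0.21 with that term and 0.40 to 0.70 without 1 library. Immediate early members lower (6) numbered 0 on unfiltered FPKM, 2 with the Xist term and 3 to 6 without 1 library, and their median (-0.78) was -0.59 and -0.52 in limma with a pseudocount of 1 and -0.83 to -0.68 without 1 library. Cholesterol members lower (5) numbered 1 without the count filter, 2 with 12 libraries, 0, 0 and 0 in limma, 0 with the Xist term and 0 to 6 without 1 library, and the median ranged over -0.36 to -0.22 without 1 library. Interferon members higher (1) numbered 0 without the filter, 4 at 10 counts in every library, 5 in DESeq2, 0 with 12 libraries, 0, 0 and 0 in limma, 0 with thinned counts, 6 with the Xist term and 0 to 21 without 1 library, and the median (1.59) was 2.29 with the Xist term and 1.06 to 1.96 without 1 library.

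No gene called in the comparison changed sign in an alternative. Of genes not called, Myc (0.018) had log2 fold changes of -0.0064, -0.0064 and -0.0068 in limma. With the Xist term the log2 fold change was -0.48 for Myc, -0.038 for Ppara (0.23), -0.19 for Dbp (0.45), 0.28 for Kdm5d (-1.30) and 0.18 for Uty (-1.42). Without 1 library it ranged over -0.11 to 0.22 for Myc, -0.089 to 0.39 for Ppara and -0.0068 to 0.69 for Dbp. Outside the fits that leave out a library, 853 values stayed on their side of the threshold, 269 lost the call and 24 gained it. Without 1 library these numbers were 476, 208 and 18. No paired analysis was possible because the Ctrl and vehicle libraries share only the number 3. With 3 libraries a group, genes near their counting limit, such as Cubn, Fosb, Cyp3a11, Cyp2c55 and Dusp1 in vehicle, rest on few reads.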
